A study of Rattus norvegicus with 35 samples.

Results

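The livers of rats fed triadimefon at 1800 ppm were compared with those of rats fed the same fungicide at 500 ppm. The comparison holds the 9 arrays whose titles name triadimefon, 4 at 1800 ppm and 5 at 500 ppm, of the 32 arrays with values and 35 listed in the series. Each array was made from the liver RNA of an individual Wistar Han IGS rat. Feeding of the fungicide began on gestation day 6 and lasted until postnatal day 92, so exposure began before birth in both groups, and the animals were young adults when liver was taken. The other groups of the series received propiconazole at 2500 ppm (n = 4) or 500 ppm (n = 3), myclobutanil at 2000 ppm (n = 4) or 500 ppm (n = 5), or feed at 0 ppm (control, n = 7) over the same period. The labels do not say whether rats of a group were littermates, and the p-values measure the spread between these animals. The comparison asks which liver transcripts moved between the lower and the higher level of one triazole. All 31042 probe sets of the Affymetrix rat genome array other than the Affymetrix controls were tested. They stand for 14217 genes with a symbol, each represented by its probe set of highest mean score, where the score is the value the authors deposited for a probe set on an array. Its scale is unknown, so a difference of scores is not a fold change.

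Triazole fungicides block the fungal lanosterol 14α-demethylase, and Cyp51 is the mammalian counterpart in cholesterol synthesis. In rodent liver, triazoles are also known to activate the nuclear receptors CAR and PXR. These raise cytochromes P450, the reductase that feeds them electrons, heme synthesis, and the enzymes and transporters that conjugate and export foreign compounds. When sterol intermediates run low, the SREBP transcription factors raise the genes of cholesterol synthesis together.

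The 1800 ppm arrays differed from the 500 ppm arrays in the signal of the control probe sets before any gene was considered. GAPDH and β-actin each have control probe sets near both ends of the transcript. The 3′ score less the 5′ score is larger where fewer transcripts reach the 5′ end. Averaged over both transcripts, this 3′–5′ difference was 1.17, 1.86, 1.16 and 1.77 in 1800 ppm replicates 1 to 4, against 0.481, 0.577, 0.561, 0.469 and 0.505 in 500 ppm replicates 1 to 5. The groups did not overlap. The difference of the means was 0.973 (1.49 ± 0.375 at 1800 ppm, n = 4, and 0.518 ± 0.0479 at 500 ppm, n = 5, SD). The two-sided exact permutation p was 0.00794, the smallest that 126 arrangements allow, and groups that do not overlap fix it beforehand. That most 1800 ppm arrays differed in this measure was known from an earlier analysis, so the p is only a description. The spread of the scores over probe sets differed as well. Its SD ran from 0.813 to 0.915 in the 1800 ppm arrays, with replicate 1 the highest. In the 500 ppm arrays it ran from 0.723 to 0.776 (exact permutation p = 0.00794, again fixed by the lack of overlap). The rats of 1800 ppm replicates 2 to 4 bore numbers above 3000, while 1800 ppm replicate 1 and all 500 ppm rats bore lower ones. Number series thus goes with dose except in 1800 ppm replicate 1. In the other groups only control replicates 5 to 7 bore numbers above 3000. The 3′–5′ difference of the 7 control arrays averaged 1.30 ± 0.595 (SD) and reached 2.12. Among the triadimefon arrays alone, dose and 3′–5′ difference cannot be told apart. The model therefore took the 3′–5′ difference as a covariate, with its slope estimated within all 7 groups, and differences without it are given for the genes they bear on. What part RNA integrity has in the results was not tested.

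**Figure D1:**
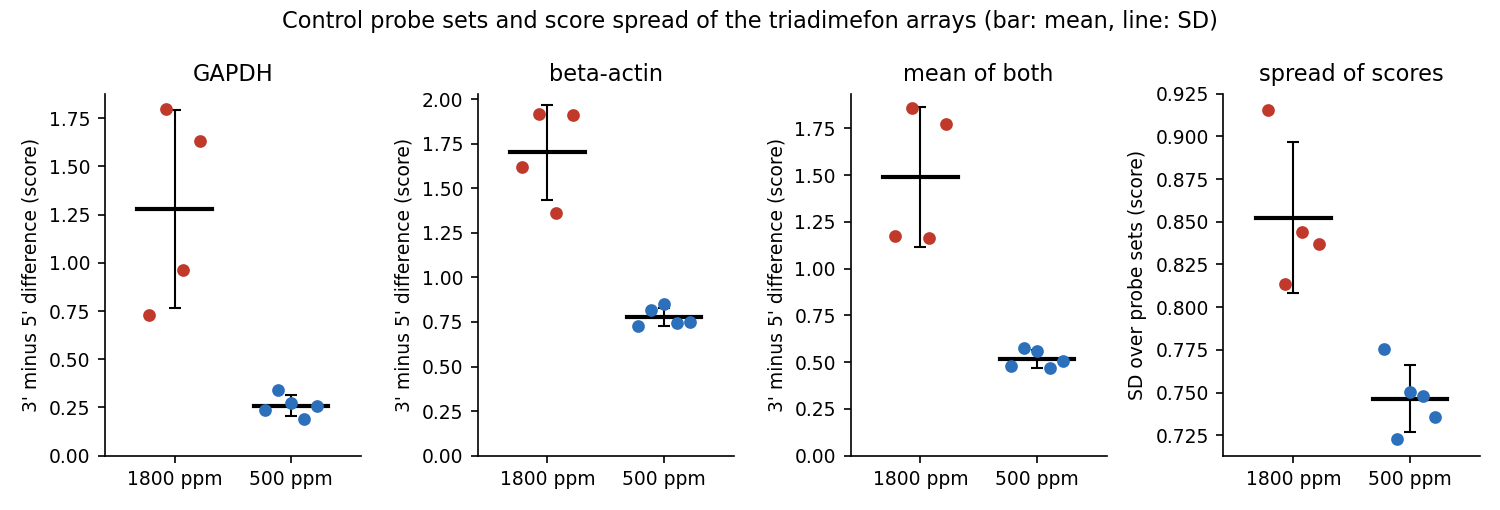
The 3′ minus 5′ difference of GAPDH, of β-actin and of their mean, and the SD of the scores over probe sets, for each 1800 ppm array (red, left) and each 500 ppm array (blue, right), with the group mean as a bar and its SD as a line (n = 4 and 5). In every panel all 1800 ppm arrays lie above all 500 ppm arrays, as the mean 3′–5′ differences of 1.49 and 0.518 show.

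The tissue was checked against markers because one protocol of the labels names testis while the titles name liver. The 16 hepatocyte markers measured had a median mean score of 5.18 at 1800 ppm and 4.43 at 500 ppm, none of them below 0, against medians of 0.346 and 0.256 over all genes. The 11 testis markers had medians of 0.105 and 0.0837. One of these, Prm1, which encodes a protamine of sperm chromatin, had a score above 0 in 27 of the 32 arrays and below 0 in 1800 ppm replicates 1, 3 and 4 and control replicates 5 and 6. Its score was 3.15 in 1800 ppm replicate 2 and between -0.33 and -0.24 in the other 1800 ppm arrays, and it ran from 0.59 to 2.15 in the 500 ppm arrays. The sum of the 11 testis markers was 7.24 in 1800 ppm replicate 2 and between -0.991 and -0.892 in the other 1800 ppm arrays, and it ran from 0.253 to 5.55 at 500 ppm.

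With the covariate, 82 probe sets (0.264% of those tested) had a higher score at 1800 ppm and 6 (0.0193%) a lower one, at a Benjamini-Hochberg adjusted p below 0.05. At an unadjusted p below 0.05 there were 4202. In bulk liver, fewer cells of a type and less RNA per cell cannot be told apart in such scores. Counted by gene, 59 of 14217 rose (0.415%) and 6 fell (0.0422%). The differences of scores ran from 0.12 to 1.54 among the higher probe sets, with a median of 0.32, and from -0.83 to -0.32 among the lower ones. Of the 88, 73 carried a single symbol, for 69 genes in all, and 15 carried none. In 82 of the 88 the scores of the 2 groups did not overlap. Without the covariate, 6927 probe sets (22.3%) were higher and 763 (2.46%) lower, and 82 of the 88 calls stood with the same sign in that fit. After quantile normalisation, again without the covariate, 1661 were higher and 1340 lower. In the deposited scores themselves, every 1800 ppm array lay above every 500 ppm array for 6777 probe sets (21.8%) and below for 702 (2.26%). The slope on the 3′–5′ difference passed the threshold in 14625 probe sets, 47.1% of those tested, and was positive in 11635 of them. With the animal number series as a block beside the covariate 352 passed, 77 of the 88 among them. Single arrays weighed on the count. It was 446 without 1800 ppm replicate 2 and 141 without 1800 ppm replicate 4. Of the triadimefon arrays, replicate 2 had the highest testis marker sum and the largest 3′–5′ difference, and replicate 4 the next largest 3′–5′ difference. What moved the count was not tested. The count was 33, 31, 52 and 57 without 500 ppm replicates 2, 3, 4 and 5. Without 1800 ppm replicate 1 it was 63, of which 38 were among the 88. After quantile normalisation with the covariate 48 passed, 33 of the 88 among them, and the named genes that lost the call there were Aldh1a1 (adjusted p = 0.0985), Gstm4 (0.0842), Scpep1 (0.122), Nipal2 (0.0561) and Arrdc3 (0.102). A total of 23 probe sets passed in every fit that left out an array.

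Among genes past the threshold, the 2 largest rises were of phase I enzymes, which oxidise or hydrolyse foreign compounds. Alas1, a gene of heme synthesis on the same list, rose as well. Differences over all probe sets reached 2.62, but those above 1.54 did not pass. Aldh1a1, a cytosolic aldehyde dehydrogenase that also makes retinoic acid, had scores of 4.29, 4.03, 4.09 and 4.05 at 1800 ppm, against 2.86, 2.46, 2.65, 2.07 and 2.24 at 500 ppm. Ces2c, a carboxylesterase that hydrolyses ester drugs, had scores of 3.35, 2.79, 2.72 and 2.83 at 1800 ppm, against 1.68, 1.45, 1.65, 1.45 and 1.67 at 500 ppm. Alas1, the rate-limiting enzyme of heme synthesis, had scores of 4.06, 3.23, 3.90 and 3.36 at 1800 ppm, against 2.79, 2.27, 2.39, 2.68 and 2.03 at 500 ppm. For all of these the lowest 1800 ppm array stood above the highest 500 ppm array. With the covariate, the score of Aldh1a1 rose by 1.54 ± 0.322 (SE, adjusted p = 0.0337), that of Ces2c by 1.36 ± 0.208 (adjusted p = 0.00145) and that of Alas1 by 1.04 ± 0.216 (adjusted p = 0.0336). Ces2c passed in all 9 fits that left out an array. Aldh1a1 passed in 3 of them and lost the call without 1800 ppm replicate 1 or 3 or 500 ppm replicate 2, 3, 4 or 5, with differences from 1.45 to 1.64 and adjusted p up to 0.104. Alas1 passed in 4 of them and lost the call without 1800 ppm replicate 1 or 3 or 500 ppm replicate 2, 3 or 5, with differences from 0.85 to 1.16 and adjusted p up to 0.153.

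The P450 genes most often used as readouts of CAR and PXR stood apart by dose in the scores, and whether they passed depended on the model. The probe set shared by Cyp2b1 and Cyp2b2, called Cyp2b here and a readout of CAR, had scores of 6.28, 5.16, 5.46 and 4.86 at 1800 ppm, against 4.45, 3.75, 4.12, 3.77 and 3.93 at 500 ppm. Cyp3a23-3a1, a readout of PXR, had scores of 5.84, 5.09, 5.23 and 4.85 at 1800 ppm, against 4.10, 3.94, 4.24, 3.83 and 4.01 at 500 ppm. Por, the reductase that supplies electrons to P450 enzymes, had scores of 2.80, 2.44, 2.01 and 2.39 at 1800 ppm, against 1.37, 1.24, 1.29, 1.21 and 1.63 at 500 ppm. None of these groups overlapped, and in each gene 1800 ppm replicate 1 was the highest array. With the covariate the difference of scores of Cyp2b was 1.07 ± 0.368 (95% confidence interval 0.31 to 1.82, adjusted p = 0.192), and without it 1.44 (adjusted p = 0.0063). For Cyp3a23-3a1 it was 0.35 ± 0.340 (interval -0.35 to 1.05, adjusted p = 0.697) with the covariate and 1.23 (adjusted p = 0.0282) without it, and its score changed by 0.91 per unit of the 3′–5′ difference. Left without 1800 ppm replicate 1, the difference of Cyp3a23-3a1 with the covariate was -0.02. For Por it was 0.81 ± 0.191 (interval 0.42 to 1.21, adjusted p = 0.0593), and it passed without 1800 ppm replicate 2 or 3 (adjusted p = 0.0367 at the lowest). With the animal number series as a block beside the covariate, Cyp2b passed (1.502, adjusted p = 0.0340) and so did Por (1.08, adjusted p = 0.00214), while Cyp3a23-3a1 did not (0.82, adjusted p = 0.131). On the triadimefon arrays only, with the covariate, Cyp2b (2.69, adjusted p = 0.0286) and Cyp3a23-3a1 (2.00, adjusted p = 0.0241) passed. Both values exceed the differences without the covariate, 1.44 and 1.23. Dose and 3′–5′ difference cannot be told apart on those arrays, so that fit does not decide whether the 2 genes rose. A second probe set of Por gave 0.23 ± 0.173, with mean scores of 0.62 at 1800 ppm and 0.81 at 500 ppm. Of the 15 measured phase I genes listed for CAR and PXR, 3 rose (Aldh1a1, Ces2c and Alas1), 0 fell and 13 had a positive difference, with a median difference of scores of 0.23, against 0.0358 over all genes. Over all 14217 genes 70.9% of the differences were positive with the covariate and 83.5% without it, and 17.0% had an unadjusted p below 0.05. The counts of the lists that follow are to be read against these shares. Without the covariate that median was 0.86, against 0.0909 over all genes, and 6 of the 15 were called, where 28.1% of all genes were called higher and 1.09% lower. In the scores, 10 of the 15 genes had every 1800 ppm array above every 500 ppm array, against 26% of all genes. This was not particular to the list, as 12 of 18 acute phase proteins and 9 of 16 hepatocyte markers did so too.

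**Figure D2:**
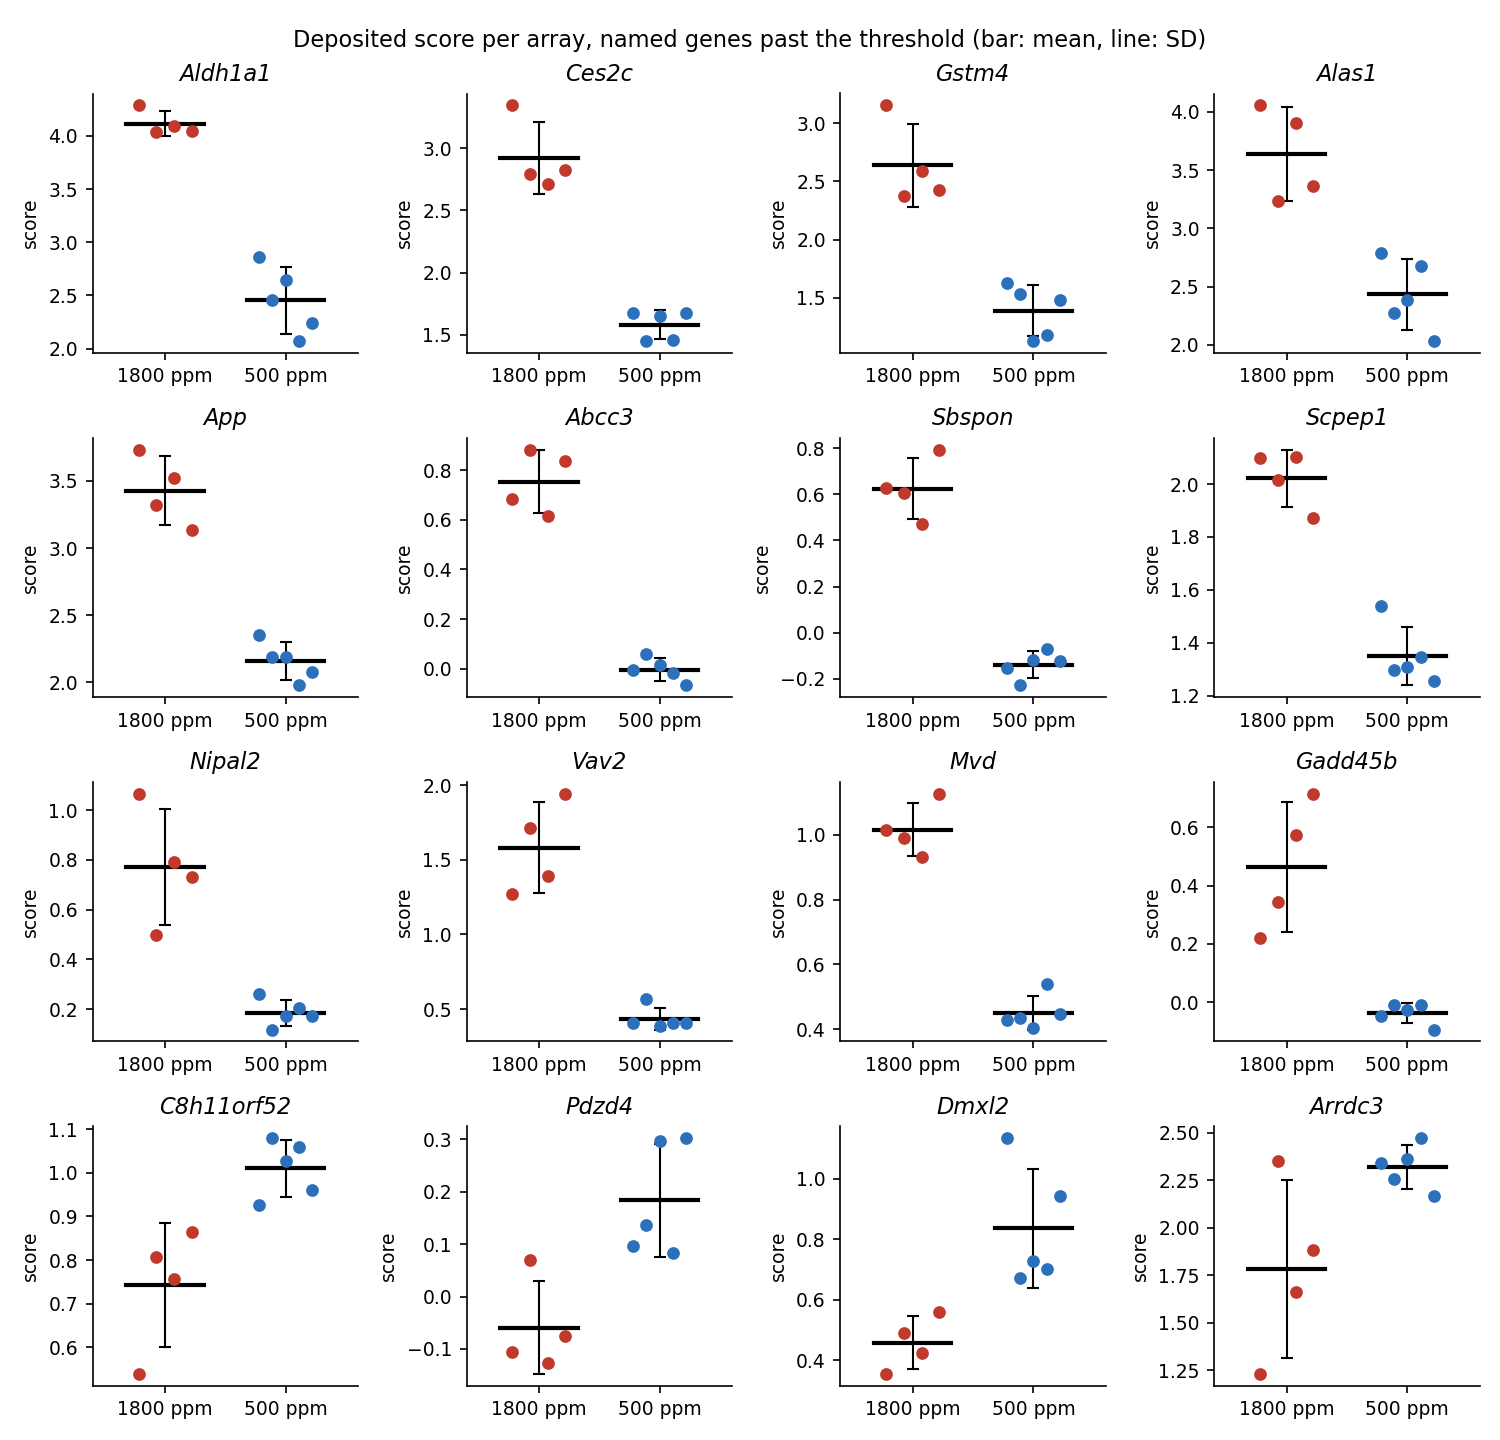
Deposited score of each array for the 16 named genes past the threshold, at 1800 ppm (red, left, replicates 1 to 4) and 500 ppm (blue, right, replicates 1 to 5), with the mean as a bar and the SD as a line. Score axes differ between panels and do not start at 0. Arrdc3 is the only one of the 16 in which the groups overlap, through 1800 ppm replicate 2 at 2.35.

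CAR and PXR bind DNA as partners of RXR at paired copies of the hexamers AGTTCA or AGGTCA. Both were searched on both strands in the 300 bases from 250 before to 50 after the start of each gene, in the RefSeq promoters of rat assembly GRCr8. They were found in 14.44% and 15.68% of 27457 promoters. Of the 23 genes named here 17 were matched to a promoter. The 2 below were picked after the matches were seen, as genes of foreign compound metabolism whose window holds AGTTCA, and each hexamer is in capitals, read from the gene's strand. Ces2c holds AGTTCA once, on the opposite strand at position -125 from the start (chr1:270376951-270377250, + strand). Cyp3a23-3a1 holds it there at 2 places with 3 bases between them, and AGGTCA once on its own strand (chr12:14398754-14399053, - strand). A match describes letters only, and Aldh1a1 and Alas1 held neither hexamer in this window.
Ces2c: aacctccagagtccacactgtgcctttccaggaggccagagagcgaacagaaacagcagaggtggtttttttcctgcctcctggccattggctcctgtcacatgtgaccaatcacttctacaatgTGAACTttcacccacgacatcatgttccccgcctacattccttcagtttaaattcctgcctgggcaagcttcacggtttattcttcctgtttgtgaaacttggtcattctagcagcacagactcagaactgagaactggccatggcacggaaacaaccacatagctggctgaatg
Cyp3a23-3a1: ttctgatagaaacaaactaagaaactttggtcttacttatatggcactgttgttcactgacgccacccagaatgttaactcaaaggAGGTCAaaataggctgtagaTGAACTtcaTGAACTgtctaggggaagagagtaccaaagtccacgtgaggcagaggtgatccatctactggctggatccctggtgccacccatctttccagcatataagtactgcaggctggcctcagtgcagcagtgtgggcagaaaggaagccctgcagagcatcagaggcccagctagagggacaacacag

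Among the conjugating enzymes and transporters one gene of each list rose. Gstm4, a glutathione transferase of the mu class, had scores of 3.15, 2.38, 2.59 and 2.42 at 1800 ppm, against 1.62, 1.54, 1.13, 1.18 and 1.49 at 500 ppm. Abcc3, which exports conjugates from the hepatocyte to the blood, had scores of 0.68, 0.88, 0.61 and 0.84 at 1800 ppm, against -0.00, 0.06, 0.01, -0.02 and -0.07 at 500 ppm. Neither gene's groups overlapped. The score of Gstm4 rose by 1.08 ± 0.225 (adjusted p = 0.0336), a call that was lost without 1800 ppm replicate 1 or 3 or 500 ppm replicate 2, 3 or 4, with differences from 0.84 to 1.16 over the 9 such fits. The score of Abcc3 rose by 0.74 ± 0.102 (adjusted p = 0.000573), and it passed in all 9 with differences from 0.71 to 0.80. Of 26 glutathione transferases, glucuronosyltransferases, sulfotransferases and their suppliers, 1 rose, 0 fell and 20 were positive, against 70.9% of all genes, with a median difference of 0.07. Gsta3 had the next largest difference there, 1.06 ± 0.28 (adjusted p = 0.0872). Of 17 drug transporters, 1 rose, 0 fell and 14 were positive (median 0.13), and Abcc2, the exporter to bile, had 0.59 ± 0.22 (adjusted p = 0.222). Of 19 NRF2 targets, which answer electrophiles and oxidants, 0 passed and 16 were positive (median 0.15), with 6 at an unadjusted p below 0.05, against 70.9% and 17.0% of all genes. Microsomal epoxide hydrolase, Ephx1, which stands on both the CAR and PXR and the NRF2 list, had 1.04 ± 0.33 (adjusted p = 0.146).

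Cyp1a1, the P450 that reads out the aryl hydrocarbon receptor, was uneven within both groups. Its scores were 1.51, 3.12, 2.60 and 2.95 at 1800 ppm, against 2.22, 1.69, 0.14, 0.33 and 1.52 at 500 ppm. The groups overlapped through 1800 ppm replicate 1, which lay below the highest 500 ppm array. The difference of scores was 1.17 ± 0.454 (95% confidence interval 0.24 to 2.11, adjusted p = 0.250) with the covariate, and 1.37 (adjusted p = 0.0164) without it. None of the other 7 targets of this receptor measured passed, Cyp1a2 having 0.13 ± 0.31 and Nqo1 0.16 ± 0.40, and the median over the 8 was 0.09. One of the 8 had an unadjusted p below 0.05 in the limma fit.

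In cholesterol synthesis every measured gene had a positive difference, and a single one passed the threshold. Mvd, which decarboxylates mevalonate diphosphate to the first isoprenoid unit, had scores of 1.02, 0.99, 0.93 and 1.13 at 1800 ppm, against 0.43, 0.43, 0.40, 0.54 and 0.45 at 500 ppm. Both groups were narrow and did not overlap. The score of Mvd rose by 0.47 ± 0.0557 (adjusted p = 9.6e-05), passed in all 9 fits without an array (0.45 to 0.49) and stood at 0.57 without the covariate. All 17 measured genes of the pathway had a positive difference, 1 of them past the threshold and 9 at an unadjusted p below 0.05, with a median difference of scores of 0.39. The next largest median of the 30 lists was that of Kupffer cell markers, 0.36. After quantile normalisation with the covariate the medians were 0.231 for cholesterol synthesis and 0.260 for Kupffer cell markers. Without the covariate the median was 0.55 and 15 of the 17 were called higher, against 28.1% of all genes. In the scores, 12 of the 17 had every 1800 ppm array above every 500 ppm array, against 26% of all genes and 12 of 18 acute phase proteins. Next to the threshold were Lss, which closes squalene epoxide to lanosterol (0.32 ± 0.07, adjusted p = 0.0501), Acat2, which joins acetyl-CoA units (0.42 ± 0.10, adjusted p = 0.0501), and Fdft1, squalene synthase (0.50 ± 0.12, adjusted p = 0.0607). A second probe set of Fdft1 was past it (0.498, adjusted p = 0.0377), but its groups overlapped and its difference without the covariate was 0.239.

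Cyp51, the enzyme closest to the fungal target, had scores of 4.08, 3.83, 4.33 and 3.96 at 1800 ppm, against 3.13, 2.81, 3.09, 2.85 and 3.07 at 500 ppm. The groups did not overlap. The difference of scores was 0.40 ± 0.230 (95% confidence interval -0.07 to 0.87, adjusted p = 0.456) with the covariate and 1.06 (adjusted p = 0.0125) without it, the score changing by 0.68 per unit of the 3′–5′ difference. After quantile normalisation without the covariate it was 0.52 (adjusted p = 0.0136). On the triadimefon arrays only, where dose and 3′–5′ difference cannot be told apart, it was 1.54 with the covariate (adjusted p = 0.0144). A second Cyp51 probe set gave 0.24 ± 0.118. Msmo1, the oxidase of the next demethylation steps, had the largest difference of the pathway, 0.76 ± 0.21 (adjusted p = 0.0990). Of 12 genes of sterol uptake and SREBP control, 0 passed and 12 were positive (median 0.15), with 2 at an unadjusted p below 0.05, and Insig1, which holds SREBP in the endoplasmic reticulum and is itself an SREBP target, had 0.67 ± 0.29 (adjusted p = 0.297).

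Scd and Apoa4 had negative differences that did not pass. Scd, the stearoyl-CoA desaturase, had scores of 2.44, 1.03, 1.80 and 1.42 at 1800 ppm, against 2.81, 3.04, 2.03, 2.96 and 3.15 at 500 ppm. Apoa4, an apolipoprotein of triglyceride-rich particles, had scores of 3.09, 2.10, 2.69 and 2.08 at 1800 ppm, against 3.55, 3.32, 2.89, 3.35 and 3.11 at 500 ppm. In both genes 1800 ppm replicate 1 reached into the range of the 500 ppm arrays. The difference of scores was -1.09 ± 0.566 for Scd (interval -2.25 to 0.07, adjusted p = 0.404) and -1.03 ± 0.270 for Apoa4 (interval -1.58 to -0.47, adjusted p = 0.0898). Apoa4 passed after quantile normalisation with the covariate (-1.02, adjusted p = 0.00983), a setting that kept 33 of the 88 calls, and without 1800 ppm replicate 1 (-1.31, adjusted p = 0.0348). Of 23 genes that make fatty acids and triglycerides, 0 passed and 13 were positive (median 0.06), with 6 at an unadjusted p below 0.05. Of 28 PPARα targets and fatty acid oxidation genes, 0 passed and 9 were positive (median -0.06), with 3 at an unadjusted p below 0.05. Without the covariate 19 of those 28 were positive, against 83.5% of all genes, and their median was 0.08.

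Several of the clearest rises were of genes outside drug and sterol metabolism. Sbspon, which encodes a secreted protein with somatomedin B and thrombospondin domains, had the smallest p of the comparison. Its scores were 0.63, 0.61, 0.47 and 0.79 at 1800 ppm, against -0.15, -0.23, -0.12, -0.07 and -0.12 at 500 ppm. App, the amyloid precursor protein, had scores of 3.73, 3.32, 3.53 and 3.13 at 1800 ppm, against 2.36, 2.19, 2.19, 1.98 and 2.08 at 500 ppm. Gadd45b, a stress-induced gene that in mouse liver is a target and coactivator of CAR, had scores of 0.22, 0.34, 0.57 and 0.71 at 1800 ppm, against -0.05, -0.01, -0.03, -0.01 and -0.09 at 500 ppm. All 3 genes separated the groups. The score of Sbspon rose by 0.65 ± 0.0712 (adjusted p = 4.28e-05), that of App by 0.996 ± 0.170 (adjusted p = 0.00494) and that of Gadd45b by 0.47 ± 0.0702 (adjusted p = 0.00125), and each passed in all 9 fits without an array. On the triadimefon arrays only, with the covariate, Sbspon (0.58, adjusted p = 0.0515) and Gadd45b (0.35, adjusted p = 0.390) did not pass, while App did. Of the other App probe sets, one rose by 0.82 ± 0.116 (adjusted p = 0.000762) and the other had 0.06 ± 0.116 (adjusted p = 0.873). Gadd45b was the only one of 20 stress and growth arrest genes to pass, and the median of that list was 0.00. Nupr1, a stress-induced chromatin protein, had -1.07 ± 0.30 (adjusted p = 0.112).

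The rise of Vav2 was smaller with the covariate than without it. Its scores were 1.27, 1.71, 1.39 and 1.94 at 1800 ppm, against 0.41, 0.57, 0.39, 0.41 and 0.41 at 500 ppm, and they were higher in the 1800 ppm arrays of larger 3′–5′ difference. The score rose by 0.59 ± 0.091 with the covariate (adjusted p = 0.00145) and by 1.15 without it. On the triadimefon arrays only, with the covariate, Vav2 had 0.43 (adjusted p = 0.148). Of its other probe sets, 2 rose (by 0.48 and 0.33) and 1 had 0.12. Scpep1, a serine carboxypeptidase, ran from 1.87 to 2.10 at 1800 ppm, against 1.26 to 1.54 at 500 ppm, and Nipal2, of the NIPA family of membrane transporters, ran from 0.50 to 1.07 at 1800 ppm, against 0.12 to 0.26 at 500 ppm. Both separated the groups. Scpep1 rose by 0.62 ± 0.140, at the very edge of the threshold (adjusted p = 0.04995), and passed in 3 of the 9 fits without an array, failing without 1800 ppm replicate 1 or 3 or 500 ppm replicate 2, 3, 4 or 5 (adjusted p up to 0.156). Nipal2 rose by 0.61 ± 0.114 (adjusted p = 0.0156) and failed without 1800 ppm replicate 1 (0.49, adjusted p = 0.0743).

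The falls were few, and 2 of the 6 lower calls stood without the covariate, against 80 of the 82 higher ones. Dmxl2, a regulator of the vacuolar proton pump, had scores of 0.36, 0.49, 0.42 and 0.56 at 1800 ppm, against 1.14, 0.67, 0.73, 0.70 and 0.94 at 500 ppm. Arrdc3, an α-arrestin that acts on adrenergic receptor trafficking, had scores of 1.23, 2.35, 1.66 and 1.88 at 1800 ppm, against 2.34, 2.26, 2.36, 2.47 and 2.17 at 500 ppm. Dmxl2 separated the groups, while Arrdc3 overlapped through 1800 ppm replicate 2. The score of Dmxl2 fell by 0.71 (SE 0.121, adjusted p = 0.00494), passing in all 9 fits without an array, and without the covariate the difference was -0.38 (adjusted p = 0.0564). On the triadimefon arrays only, with the covariate, it was -0.52 (adjusted p = 0.242). The score of Arrdc3 fell by 0.83 (SE 0.183, adjusted p = 0.0462). It passed in 1 of the 9 fits, the one without 1800 ppm replicate 2, and its second probe set had -0.40 ± 0.149. Pdzd4, a PDZ domain protein, and C8h11orf52, an open reading frame with no name of its own, also fell. Pdzd4 ran from -0.13 to 0.07 at 1800 ppm, against 0.08 to 0.30 at 500 ppm, with a difference of -0.42 ± 0.090 (adjusted p = 0.0382). C8h11orf52 ran from 0.54 to 0.86 at 1800 ppm, against 0.93 to 1.08 at 500 ppm, with a difference of -0.32 ± 0.068 (adjusted p = 0.0338). Pdzd4 lost its call without 1800 ppm replicate 1, 3 or 4 or 500 ppm replicate 2, 3 or 5, and C8h11orf52 without 1800 ppm replicate 1 or 500 ppm replicate 2, 3 or 4.

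The remaining falls, Paqr7 and Polr2l, are named after their values were seen, because they turned sign with the covariate. Paqr7, a membrane progestin receptor, had scores of 1.31, 1.72, 1.22 and 1.79 at 1800 ppm, against 1.28, 1.39, 1.59, 1.12 and 1.45 at 500 ppm. Polr2l, a small subunit of RNA polymerases, had scores of 1.61, 2.97, 1.87 and 2.82 at 1800 ppm, against 2.20, 2.27, 2.48, 2.22 and 2.20 at 500 ppm. In both genes the groups overlapped, with 1800 ppm replicates 2 and 4, the arrays of largest 3′–5′ difference, above replicates 1 and 3. With the covariate the difference of scores was -0.63 for Paqr7 and -0.75 for Polr2l, and without it 0.14 and 0.05.

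**Figure D3:**
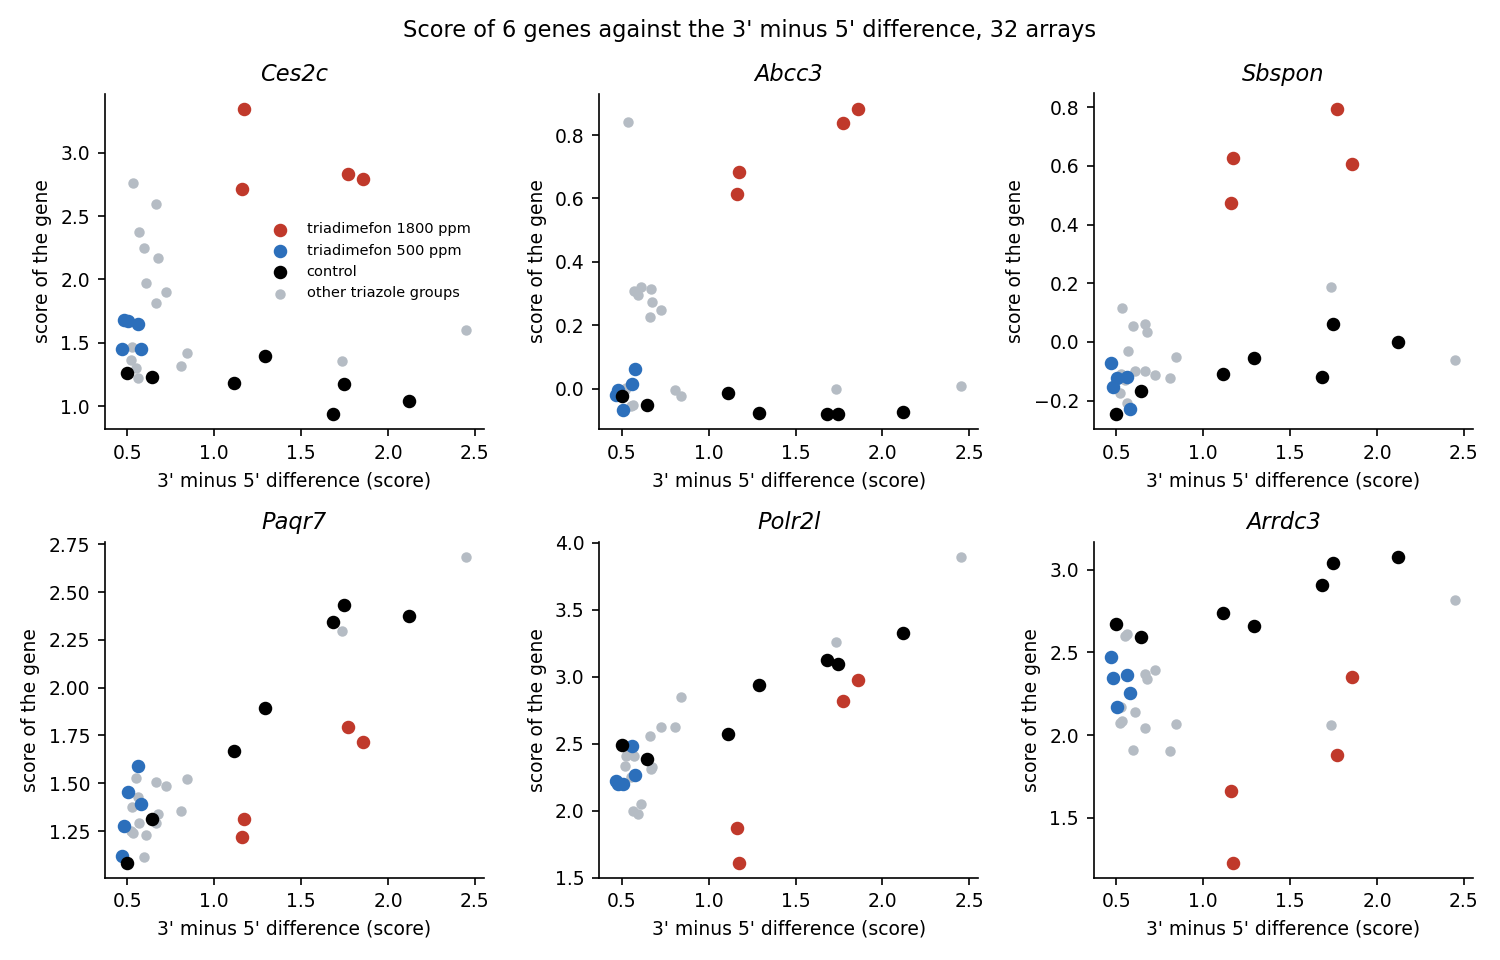
Score of 6 genes (vertical axes) against the 3′–5′ difference of the array (horizontal axes) in all 32 arrays, with triadimefon 1800 ppm in red, 500 ppm in blue, controls in black and the other triazole groups in grey. For Ces2c, Abcc3 and Sbspon the 1800 ppm arrays lie above control arrays of like 3′–5′ difference, while for Paqr7, Polr2l and Arrdc3 the control scores are higher at larger 3′–5′ difference and the 1800 ppm arrays lie below them.

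Read over 30 gene lists of liver pathways and cell types, 7 of the 498 genes measured rose and 0 fell. Of all genes, 0.415% rose and 0.0422% fell, and the lists were chosen with earlier results of these data known. The 7 were Aldh1a1, Ces2c, Alas1, Gstm4, Abcc3, Mvd and Gadd45b, with Aldh1a1 counted on both the CAR and PXR list and the retinoid list. The other 20 retinoid genes did not pass, Dhrs3, which turns retinal back to retinol, having 0.43 ± 0.17 (adjusted p = 0.271), and the median of the retinoid list was 0.03. The sex-biased liver genes had the lowest median, -0.10, with 4 of 16 positive, 0 past the threshold and 1 at an unadjusted p below 0.05, and without the covariate it was 0.31 with 12 of 16 positive. Of 27 subunits of oxidative phosphorylation, 0 passed and 17 were positive (median 0.05), and the lowest differences were of Ndufa4 (-0.69 ± 0.217) and Ndufa2 (-0.63 ± 0.193), with 6 genes at an unadjusted p below 0.05, 0 of them higher. Cell cycle and DNA replication genes were positive in 22 of 24, with 0 past the threshold, 10 at an unadjusted p below 0.05, a median of 0.08 and mean scores below 0 in 8 of 24 at 1800 ppm and 13 of 24 at 500 ppm. Acute phase proteins had a median of 0.12, urea cycle and amino acid genes 0.24, bile acid genes 0.14 and endoplasmic reticulum chaperones 0.13. None of these had a member past the threshold in limma, and 4, 1, 1 and 0 members in that order had an unadjusted p below 0.05. Lipid droplet (median 0.01), glucose (0.08), steroid hormone (0.05), interferon (0.06) and clock genes (0.00) had 0 past it, with 4, 1, 1, 2 and 0 members at an unadjusted p below 0.05.

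**Figure D4:**
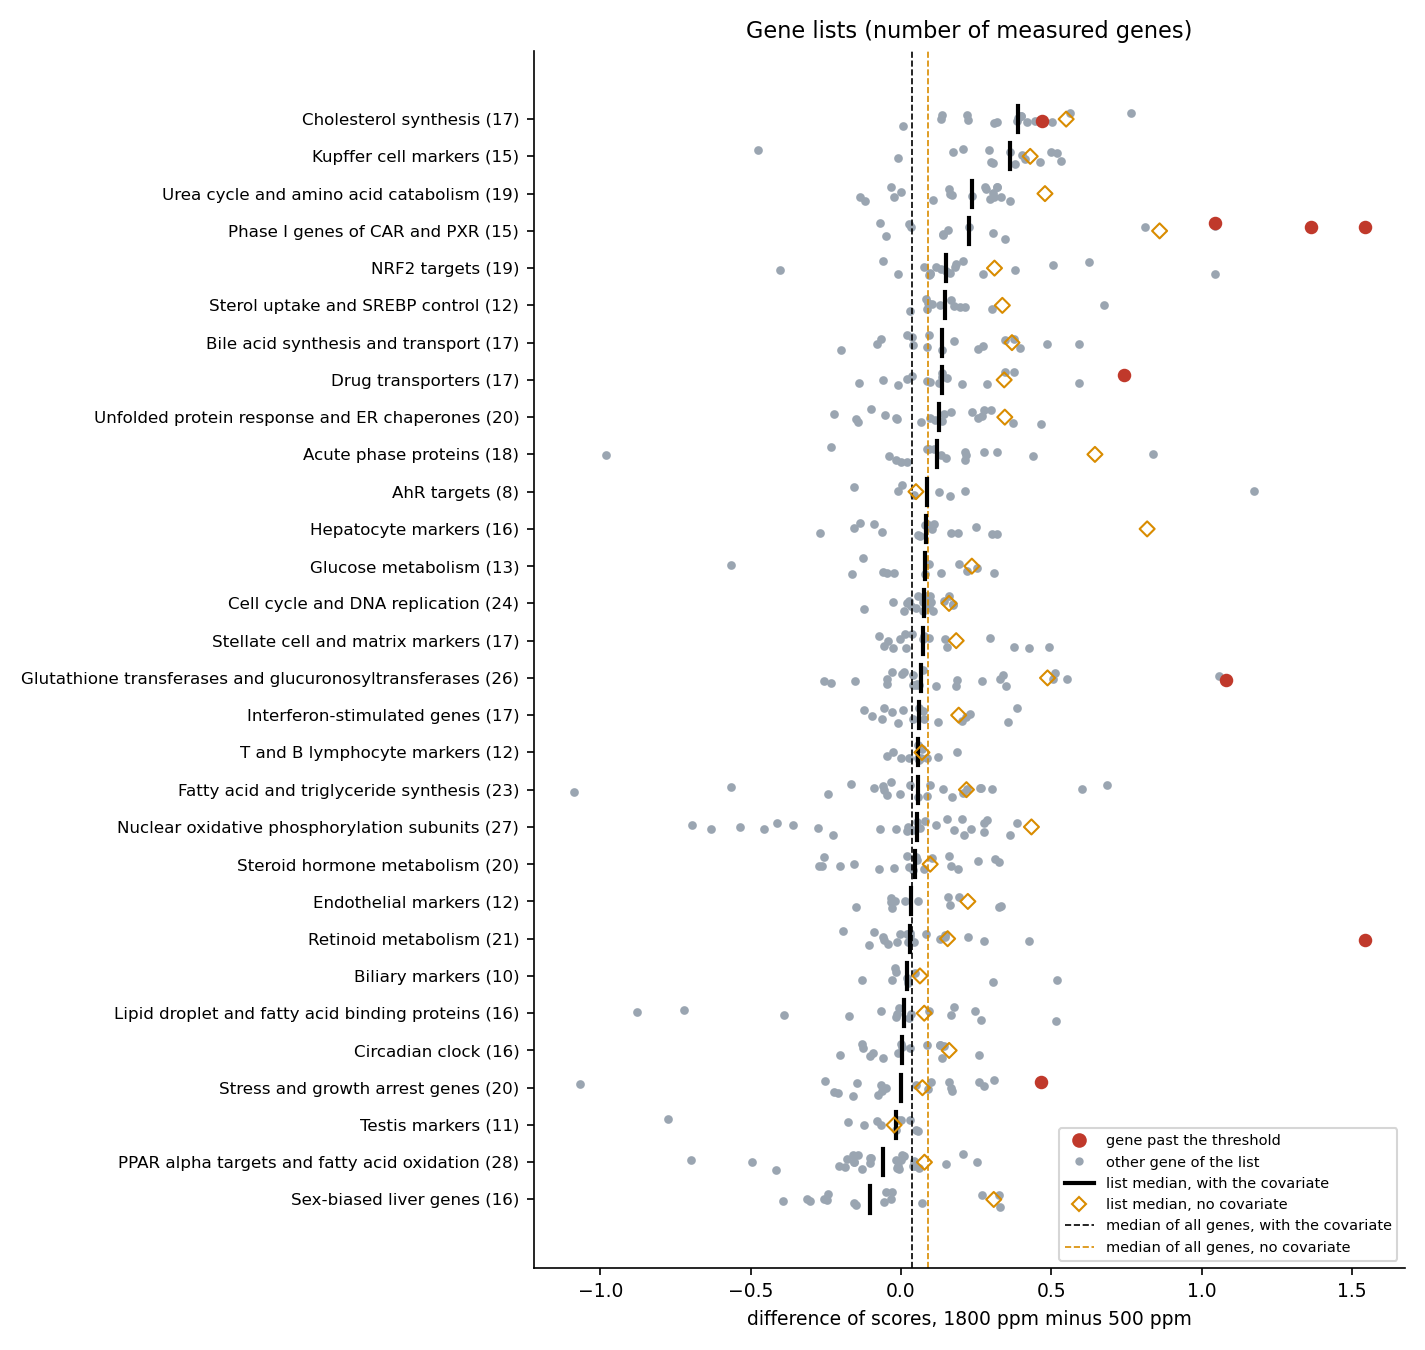
Difference of scores, 1800 ppm minus 500 ppm, for each measured gene of 30 lists (grey points; red where past the threshold), with the list median with the covariate (black bar) and without it (open diamond), and the medians of all genes as dashed lines (0.0358 with the covariate, 0.0909 without). With the covariate the median of cholesterol synthesis is 0.39 and that of Kupffer cell markers 0.36, and without it those of the phase I genes (0.86) and hepatocyte markers (0.82) are larger.

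Markers of other liver cells were read in the same way. Kupffer cell markers were positive in 13 of 15, with a median of 0.36 and 10 of 15 at an unadjusted p below 0.05 in the higher direction, against 2081 of 14217 over all genes, and 0 passed the threshold. Their summed score ran from 18.5 to 24.2 in the 1800 ppm arrays and from 11.0 to 19.5 in the 500 ppm arrays, and none of the 15 had a mean score below 0. The differences of the 15 ran from -0.47 to 0.53. In the scores, 3 of the 15 had every 1800 ppm array above every 500 ppm array, against 26% of all genes. Csf1r, the receptor of the macrophage growth factor, had 0.40 ± 0.11 (adjusted p = 0.106) and Laptm5, a lysosomal protein of immune cells, 0.30 ± 0.08 (adjusted p = 0.0872). The part of Kupffer cells in the rises above was not tested. The medians were 0.08 for 16 hepatocyte, 0.03 for 12 endothelial, 0.07 for 17 stellate and matrix, 0.02 for 10 biliary and 0.06 for 12 lymphocyte markers, with 0 past the threshold in each by limma and 0, 4, 5, 1 and 2 at an unadjusted p below 0.05 in the same order. Without the covariate the hepatocyte median was 0.82, and 9 of the 16 hepatocyte markers had every 1800 ppm array above every 500 ppm array, against 26% of all genes.

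The level at each dose is set beside the controls as a description. The means here are scores adjusted to the average 3′–5′ difference of the 32 arrays. Gstm4 stood at 1.47 in controls, 1.47 at 500 ppm and 2.55 at 1800 ppm. Alas1 stood at 2.50, 2.51 and 3.55, Mvd at 0.55, 0.49 and 0.96, and Gadd45b at -0.04, -0.02 and 0.44, in the same order of doses. Aldh1a1 stood at 1.80, 2.51 and 4.05 and Ces2c at 1.18, 1.57 and 2.93, with 500 ppm minus control differences of 0.71 ± 0.275 and 0.39 ± 0.178, neither past the threshold (adjusted p = 0.9996 for both). Of the genes that did not pass between the doses, Cyp2b stood at 2.38, 4.17 and 5.24, and Cyp1a1 at -0.01, 1.26 and 2.44. In the deposited scores the 500 ppm arrays of Cyp2b all lay above the 7 controls, which ran from 2.14 to 3.03, and those of Ces2c all lay above controls of 0.936 to 1.40. How many of all probe sets separated these 2 groups was not counted. Their mean 3′–5′ differences were 0.518 at 500 ppm and 1.30 in controls. The 500 ppm minus control difference of Cyp2b was 1.79 ± 0.315, which did not pass over all probe sets (adjusted p = 0.162). In limma with the covariate, 0 probe sets (0%) passed between 500 ppm and control, with 1306 at an unadjusted p below 0.05, and 604 (1.95%) passed between 1800 ppm and control. The 2 comparisons with the controls share the control arrays, and each shares a dose group with the present one.

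The other triazoles were given at other upper levels, so their steps are set beside this one without a test. Between propiconazole at 2500 and 500 ppm, 0 probe sets (0%) passed, with 555 at an unadjusted p below 0.05, and between myclobutanil at 2000 and 500 ppm 0 (0%) passed, with 756. The differences of scores for Aldh1a1 were 1.54 ± 0.322 with triadimefon, 1.15 ± 0.313 with propiconazole and 0.39 ± 0.293 with myclobutanil. For Ces2c they were 1.36 ± 0.208, 0.78 ± 0.202 and 0.50 ± 0.189, and for Abcc3 0.74 ± 0.102, 0.36 ± 0.0987 and 0.24 ± 0.0926, in the same order of compounds. For Mvd they were 0.47 ± 0.0557, 0.03 ± 0.0540 and -0.00 ± 0.0507, and for Alas1 1.04 ± 0.216, 0.25 ± 0.210 and -0.15 ± 0.197. Scd had -1.09 ± 0.566, -0.94 ± 0.549 and -1.32 ± 0.515. Single arrays stood apart within some of these groups. In propiconazole 500 ppm replicate 5 Ces2c scored 2.17, against 1.22 and 1.42 in replicates 1 and 2. Abcc3 scored 0.27 in that array, against -0.05 and -0.03. In myclobutanil 2000 ppm replicate 5 Abcc3 scored 0.001, against 0.25 to 0.32 in replicates 2 to 4.

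**Figure D5:**
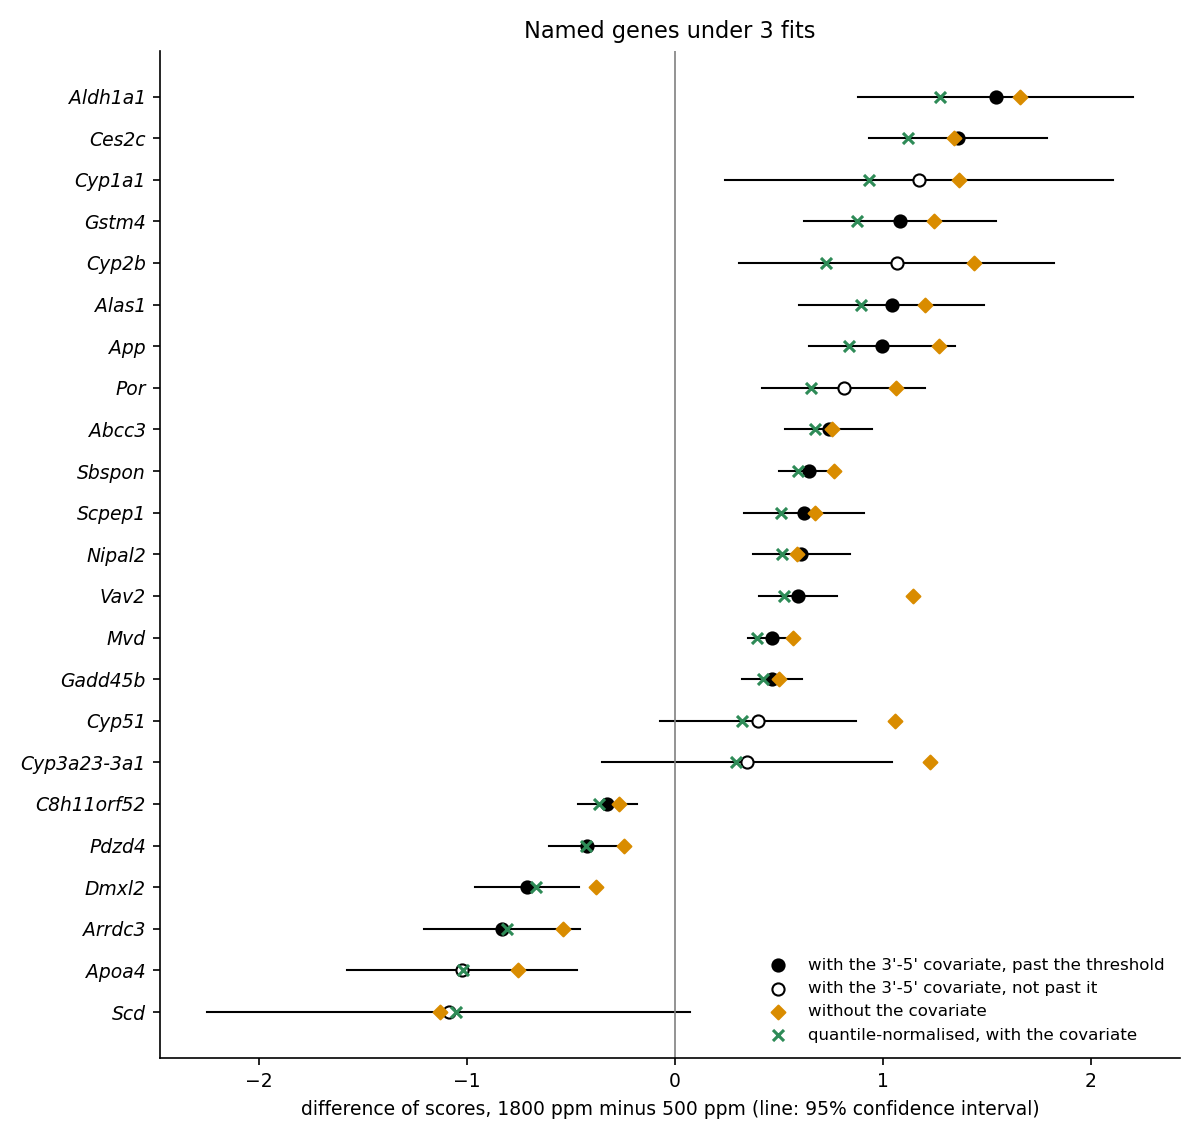
Difference of scores, 1800 ppm minus 500 ppm, for the 23 named genes with the 3′–5′ covariate (circles, filled where past the threshold, with 95% confidence intervals), without the covariate (diamonds) and after quantile normalisation with the covariate (crosses). The 3 estimates share a sign in every gene shown, and they lie farthest apart for Cyp3a23-3a1 (0.35 with and 1.23 without the covariate) and Cyp51 (0.40 and 1.06).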

How the data were processed

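Per the labels, RNA of single rats was labelled and read on Affymetrix arrays of the rat genome. The titles and the labelling protocol name liver, while the extraction protocol names testis. The authors deposited a score for each of 31099 probe sets on every array. The sources used here do not give its summarisation, normalisation, log base or centring. The planned test assumed log-scale values and took the scores as they stand. The tests left out 57 probe sets of the manufacturer's controls. The platform annotation gave 1 symbol to 20826 of the 31042 probe sets tested, several to 436 and none to 9780. Of those with 1 symbol, 20758 matched the rat gene table by Entrez identifier, and 0 symbols changed.

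The 3 listed arrays without values, none of triadimefon, were not used. All 32 others entered 1 linear model with 7 groups and the 3′–5′ difference as covariate (limma 3.58.1 in R 4.3.3, lmFit, contrasts and eBayes at defaults, 24 residual and 2.37 prior degrees of freedom, files read with version 1.17.8 of data.table). Tests were two-sided, adjusted by Benjamini-Hochberg over all 31042 probe sets, with a threshold of 0.05. The fit was tested on simulated data. Single array measures were compared by exact permutation tests.

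Genes named were the 10 largest rises and 10 largest falls past the threshold with the same sign without the covariate and in 1800 ppm replicate 1, up to 2 genes of smallest p past it from each of 30 lists (561 genes, 498 measured), and Cyp2b, Cyp1a1, Cyp3a23-3a1, Cyp51, Aldh1a1, Ces2c, Abcc3, Por, Scd and Apoa4. Other list members were named after their values were seen, as members next to the threshold or of known role. The members and lists were chosen with earlier results of these data known. Alternatives were other covariates or none, fewer arrays, the animal number series or replicate number as a block, quantile normalisation, a filter on the dimmest 40% of probe sets, other variance models and leaving out each array. The number of arrays limits the precision. Promoters are RefSeq's (GRCr8), searched with Python 3.11.15 and pandas 2.3.3, and plots were made with matplotlib 3.10.9. No arrays within a group held the same values: correlations ran from 0.933 to 0.990 within 1800 ppm and from 0.984 to 0.992 within 500 ppm.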

Additional observations from a re-analysis of the deposited data

Results flagged for a closer look

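Of 50 sets of scores checked (groups of 4 or 5 arrays of each named gene, and the control measures), 1 held an array far from the others. For Vav2, 500 ppm replicate 2 had a score of 0.565, against 0.409 in the next array and 0.389 in the lowest, so the gap to the nearest array was 0.885 of the range where 0.71 is the critical value for 5 arrays. Such a check marks about 1 in 20 groups by chance. Vav2 passed in all 9 fits that left out an array, with differences from 0.54 to 0.65.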

How the results depend on the processing

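The count of 88 probe sets past the threshold depended on the covariate and on the arrays in the fit. It was 7690 with no covariate, 7302 with no covariate on arrays of low GAPDH difference (1 against 5), and with the GAPDH difference alone as covariate 390 and with that of β-actin alone 28. Fitted on the triadimefon arrays only it was 1430 with the covariate, where 29 of the 88 stayed, and 7888 without. With the animal number series as a block it was 352 with and 763 without the covariate, and with only animals numbered below 3000 (1 against 5, the lone array assumed to vary like the other groups) 4132. After quantile normalisation it was 48 (40 higher, 8 lower) with the covariate and 3001 (1661 higher, 1340 lower) without. Array weights gave 40, and the array SD as a further covariate, an alternative chosen after seeing the data, 287. Leaving out each array in turn gave 31 to 446. Without the dimmest probe sets it was 99 and with a variance trend 116. The replicate block gave 301 (282 higher, 19 lower). The numbers do not pair the animals, as the deviations of same-numbered arrays correlated at 0.0165, 0.351, -0.179 and 0.00727. The 3′–5′ difference between the groups ran from 0.851 to 1.08 over the comparisons without 1 array, whose p the non-overlapping groups fix beforehand.

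For the 23 named genes under 25 alternatives, 456 of the values kept sign and side of the threshold, 76 lost the call and 39 gained it. The 4 that changed sign had not passed: Cyp1a1 (-0.0333), Scd (0.27) and Apoa4 (0.46) on the triadimefon arrays only with the covariate, and Cyp3a23-3a1 (-0.0202) without 1800 ppm replicate 1, the lowest of the 9 fits without an array, where 0.525 was the highest. Ces2c, App, Abcc3 and Mvd passed in all 25. The replicate block ended the calls of Scpep1 (0.56, adjusted p = 0.0799) and C8h11orf52 (-0.31, adjusted p = 0.0590). The cause of these changes was not tested. Quantile normalisation moved the median of all probe sets to 0.00277 from 0.0249.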

Other observations

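Of the higher probe sets outside the naming rule, several passed in every fit that left out an array and after quantile normalisation, and those below were named after their values were seen. Car2, a carbonic anhydrase, had a difference of scores of 0.50 ± 0.0756 (adjusted p = 0.00125), and Anxa5, a phospholipid-binding annexin, 0.48 ± 0.0865 (adjusted p = 0.00935). Cd276, an immune checkpoint protein, had 0.35 ± 0.0432 (adjusted p = 0.000123), Mmp24, a membrane-type matrix metalloproteinase, 0.29 ± 0.0488 (adjusted p = 0.00399), and Sort1, a sorting receptor of the Golgi, 0.23 ± 0.0380 (adjusted p = 0.00379). In all of these every 1800 ppm array lay above every 500 ppm array, as it did for 21.8% of all probe sets.

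Prm1 had a score of 0.526 or more in every array of the other triazole groups and in 5 of the 7 controls. The sum of the 11 testis markers was 7.30 in myclobutanil 2000 ppm replicate 5 and 6.78 in myclobutanil 500 ppm replicate 2, and it was lowest of the 32 arrays, -0.991 to -0.692, in 1800 ppm triadimefon replicates 1, 3 and 4 and control replicates 5 and 6. Tnp1, which encodes a transition protein of spermatids, had a score of 1.37 in 1800 ppm triadimefon replicate 2 and between -0.34 and -0.29 in the other 3 arrays of that group, against -0.20 to 0.99 in the 500 ppm arrays.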
